A study of Mus musculus with 11 samples.

Results

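The 81 genes described here code for molecular chaperones of the heat shock protein, DnaJ and chaperonin families in the neonatal mouse heart. They are the rows of the count table, of 50600 listed names, that begin with Hspa, Hspb, Hspd, Hspe, Hsph, Hsp90, Dnaja, Dnajb or Dnajc, or with Cct and a digit, without names marked as pseudogenes (-ps) and without 2 further names. The rule goes by name and uses no measured value. Of the 81, 72 passed the filter on low counts and were tested among 15808 genes. The other 9 (Cct6b, Cct8l1, Dnajb7, Dnajb8, Dnajc22, Dnajc5b, Dnajc5g, Dnajc6 and Hspb9) stayed at or below 0.406 CPM in every library, where CPM are counts per 1000000 counts of a library, scaled by TMM.

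Pulmonary artery banding (PAB) narrows the vessel that leaves the right ventricle and so raises the load on that ventricle. C57BL/6 wild type mice were operated on at P0, the day of birth, and the heart was taken at postnatal day 3 (P3) or 7 (P7). Tissue is labelled as heart, while the study's text names ventricles and does not say that the sides were separated. The P3 sham, P3 PAB and P7 sham groups hold 3 libraries each and the P7 PAB group holds 2. All 4 groups shared cooling to a standstill of the heart as anaesthesia, opening of the chest and pericardium, and rewarming. Sham mice had every step but the tie around the artery, so no group shows a heart that was never cooled or opened.

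Chaperones hold or fold other proteins. HSP70 proteins bind short exposed stretches of a client in a cycle driven by ATP, J-domain (DnaJ) proteins bring the client and start that cycle, and exchange factors such as HSP110 and Hspbp1 end it. HSP90 acts later on signalling proteins and receptors, small heat shock proteins bind unfolded clients without ATP, and the chaperonins TRiC/CCT in the cytosol and HSP60 with HSP10 in mitochondria fold clients inside a closed chamber. Small heat shock proteins are abundant in heart muscle, where they are known to bind filaments of the sarcomere and the cytoskeleton. Many of these genes are targets of heat shock factors, and those of the endoplasmic reticulum (ER) are targets of the unfolded protein response.

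Library depth ran from 19274045 to 26820228 counts, at which 3 counts, taken as the floor, equal 0.114 to 0.148 CPM. Of the cardiomyocyte markers, Myh6 had 16628 to 34842 CPM over the libraries and the other 7 (Tnnt2, Tnni3, Actn2, Ryr2, Pln, Myl2 and Myl3) summed to at least 22952 CPM in each, whereas lung markers (Sftpc, Sftpb, Sftpa1 and Scgb1a1) summed to at most 1.66 CPM. The libraries stood apart in 2 ways that touch the P7 comparison and the comparisons of age. All 3 P7 sham libraries and P3 sham replicate 1 had Xist at 630.2 to 1061 CPM and Ddx3y at 0 to 0.437 CPM, whereas both P7 PAB libraries and the 5 others had Xist below 1 CPM and Ddx3y at 42.9 to 51.0 CPM. At P7 this difference and banding therefore cannot be told apart. It also goes partly with age in sham hearts, and at P3 it sets 1 sham library apart from the PAB libraries. Short genes were also relatively high in both P7 PAB libraries, where the log2 level fell by 0.15 and 0.14 for each doubling of exonic length relative to the mean library, against changes of -0.03 to 0.07 in the other 9. Mitochondrially encoded transcripts took 11.4 to 13.1% of the counts at P3, 21.1 to 22.2% in P7 sham and 18.0 to 18.1% in P7 PAB.

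At P7, PAB hearts had more small heat shock protein mRNA and more of the chaperonin subunit Cct3 than sham hearts, while none of the most abundant chaperones of the cytosol, the ER and the mitochondria passed the threshold on the fold change. In such bulk tissue, fewer cells of a type and less RNA per cell cannot be told apart. A gene was called when its fold change was at least 1.5 and its edgeR adjusted p at most 0.05. Of the 72 members tested, 10 were called higher (13.9%) and 2 lower (2.78%), beside 9.63% and 8.59% of all genes tested. The higher count was 5 (beside 6.21% of all genes) once the trend of each library with exonic length was removed, and 3 (beside 4.99%) with a term for the class by Xist and Ddx3y as well, so the share of members is near that of all genes there. The median log2 fold change was 0.06 over the members and -0.0037 over all genes tested. Without the threshold on the fold change, 23 members were higher and 16 lower at the same adjusted p, beside 22.8% and 22.1% of all genes, and 41 of the 72 had a value above 0, beside 49.5%. The higher members were Hspb1, Hspb2, Hspb3, Hspb8, Hspb11, Hspbp1, Hspa1l, Cct3, Dnajc12 and Dnajc24, and the lower ones were Dnajc21 and Dnajc28.

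**Figure D1:**
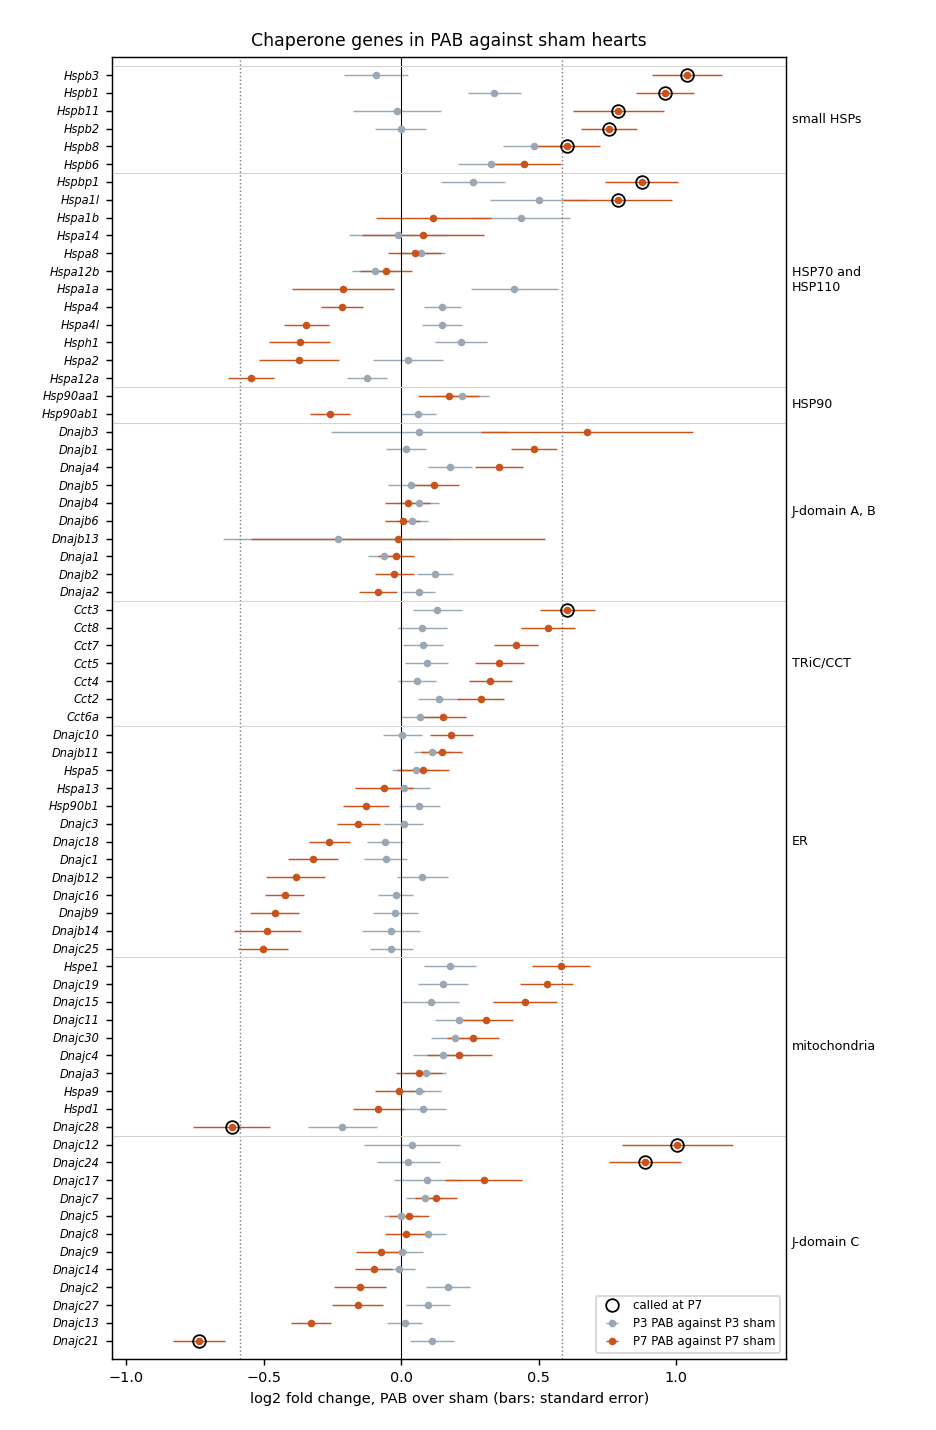
Log2 fold change of each of the 72 tested chaperone genes in PAB over sham hearts at P3 (grey) and P7 (orange), grouped by role, with bars for the standard error of the fit. Dotted lines mark a fold change of 1.5 and rings mark the 12 genes called at P7. Small heat shock proteins lie to the right at P7, from 0.45 (Hspb6) to 1.04 (Hspb3), and most ER genes lie to the left.

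Markers of other tissue and cell states moved beside the chaperone genes at P7, where 9.63% of all genes tested were called higher and 8.59% lower. Hypoxia genes (4 of 8 called higher) summed to 983 to 1160.0 CPM in P7 sham and 1692 to 2054 CPM in P7 PAB. Smooth muscle markers (2 of 4 called higher) summed to 559 to 754 CPM and 795 to 977 CPM. Most of that sum was Acta2, and Myh11 was lower without overlap (log2 fold change -0.24, not called). Atrial markers (1 of 4 called higher) summed to 53.7 to 98.5 CPM and 136 to 158 CPM. Cardiomyocyte markers moved both ways. Myh6 had 34842, 28176 and 32740.3 CPM in P7 sham and 17887 and 16628 CPM in P7 PAB and was called lower, as was Ryr2 (log2 fold changes -0.89 and -0.90). Myl2 and Myl3 were higher by adjusted p alone (0.47 and 0.51). All 8 summed to 52664 to 60612 CPM in P7 sham and 44072 to 46635 CPM in P7 PAB, while the 7 without Myh6, a sum added after seeing the data, stood at 24488 to 25769 CPM and 27444 to 28748 CPM. Endothelial markers (0 of 6 called) summed to 1365 to 1410.0 CPM and 1034 to 1134 CPM. Fibroblast markers, with 1 of 6 called lower, overlapped, at 3017 to 3168 CPM and 2764 to 3268 CPM. Macrophage markers, also with 1 of 6 called lower, overlapped at 107 to 150.3 CPM and 104 to 121 CPM. Erythroid markers (0 of 6 called) summed to 2246 to 3042 CPM and 3411 to 3911 CPM. Of 8 immediate early genes 2 were called higher, and of 3 brown fat markers 1 was tested and called higher. Smooth muscle is known to express Hspb1 and Hspb6 too, and the part of these shifts in the chaperone results was not tested.

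Among the small heat shock proteins, with Hspb11 counted by its name, 5 of the 6 tested were called higher at P7 (beside 9.63% of all genes tested). The last of them, Hspb6, was higher by adjusted p alone (beside 22.8%). The median of the 6 log2 fold changes was 0.77. Their summed level was 437 to 578 CPM in P7 sham and 711 to 811 CPM in P7 PAB. Hspb1, known as HSP25 in the mouse, binds unfolded proteins and actin filaments. It stood at 178, 178 and 148 CPM in the P3 sham libraries, 224, 224 and 190.1 CPM in P3 PAB, 112, 88.8 and 99.8 CPM in P7 sham, and 197 and 193 CPM in P7 PAB. Both P7 PAB libraries lay above all 3 P7 sham libraries and within the range of the P3 PAB libraries. The P7 difference was 1.95-fold (log2 fold change 0.96, SE 0.11, edgeR adjusted p = 7.44e-06). Hspb1 has stretches of 99.8% identity to Gm9817 and to the pseudogene Hsp25-ps1, which held 70 and 130 counts over all libraries against 42180 for Hspb1, so its reads could be split between them.

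Hspb2 and Hspb3 bind each other in striated muscle. Hspb3 had 9.19, 11 and 10.5 CPM in the P3 sham libraries, 9.46, 11 and 8.45 CPM in P3 PAB, 8.62, 7.87 and 7.71 CPM in P7 sham, and 18.1 and 14.9 CPM in P7 PAB, so the P7 PAB libraries stood above the other 9 (log2 fold change 1.04, SE 0.13, edgeR adjusted p = 1.74e-05). Hspb2 had 35.8, 42.7 and 35.1 CPM in the P3 sham libraries, 37.4, 38.3 and 37.9 CPM in P3 PAB, 41.7, 33.2 and 33.4 CPM in P7 sham, and 63.1 and 58.7 CPM in P7 PAB. It too was higher in both P7 PAB libraries than in any other (log2 fold change 0.76, SE 0.10, edgeR adjusted p = 4.32e-05). Hspb2 lies head to head with Cryab on chromosome 9, and 30.2% of its exonic length overlaps that gene on the other strand. The strand setting of the counting is not given in the sources used here, so reads of the 2 genes in the overlap cannot be told apart. Hspb11, named for its relation to this family and known as a subunit of the transport machinery of cilia, had 4.08, 4.07 and 3.82 CPM in the P3 sham libraries, 3.86, 3.64 and 4.35 CPM in P3 PAB, 4.78, 5.1 and 3.4 CPM in P7 sham, and 8.21 and 7.0 CPM in P7 PAB. Its P7 PAB libraries were again the highest (log2 fold change 0.79, SE 0.17, edgeR adjusted p = 0.00132). With the Xist and Ddx3y class of each library as a term its value was 0.84 and it was not called (edgeR adjusted p = 0.0662).

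Hspb8, which works with Bag3 in the removal of misfolded muscle proteins, rose with age as well as with banding. Its libraries read 55.3, 56.3 and 45.6 CPM (P3 sham), 79, 74.5 and 66.5 CPM (P3 PAB), 126, 101.4 and 98 CPM (P7 sham) and 182 and 147 CPM (P7 PAB). PAB libraries lay above sham libraries of the same age without overlap, and every P7 library lay above every P3 library. At P7 the fold change was 1.52 (log2 fold change 0.60, SE 0.12, edgeR adjusted p = 0.000914). The call was lost without P7 sham replicate 2 (log2 fold change 0.55), without P7 sham replicate 3 (0.53) and without P7 PAB replicate 1 (0.44), each under the fold threshold. Hspb6, or HSP20, a phosphoprotein of cardiac and smooth muscle, had 166, 177 and 158 CPM in the P3 sham libraries, 184, 213 and 231 CPM in P3 PAB, 285, 200.1 and 211 CPM in P7 sham, and 343 and 289.8 CPM in P7 PAB. Its P7 groups did not overlap, but the fold change of 1.36 was under the threshold (log2 fold change 0.45, SE 0.13, edgeR adjusted p = 0.012).

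**Figure D2:**
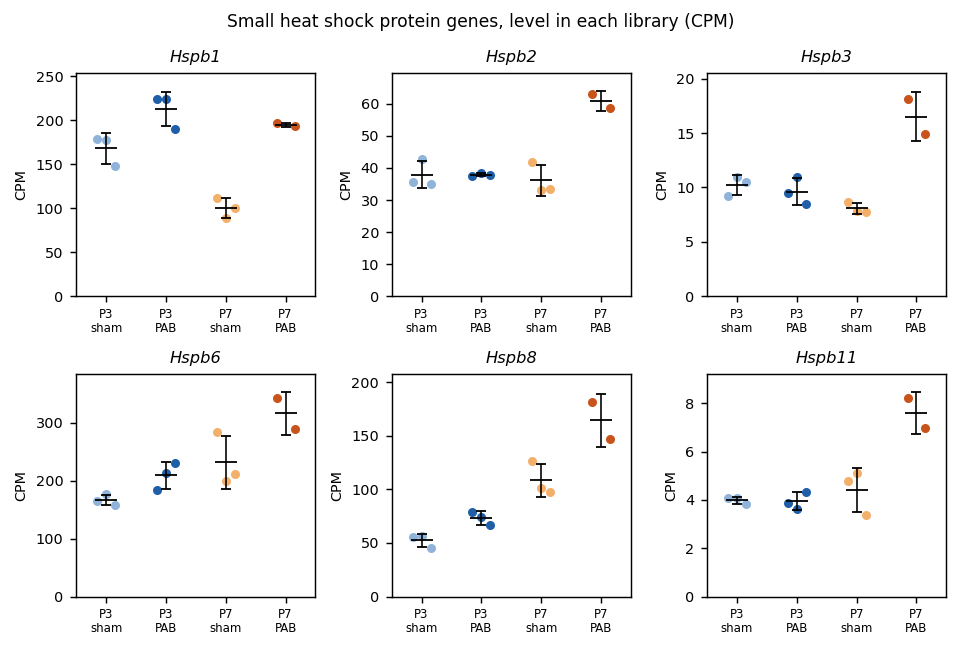
Level of the 6 tested small heat shock protein genes in each of the 11 libraries, in CPM on a linear axis from 0, with the group mean and SD as bars. Both P7 PAB libraries (orange) lie above all P7 sham libraries for each gene, and Hspb1 is lowest in P7 sham at 112, 88.8 and 99.8 CPM.

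The genes of small heat shock proteins are short, with exonic lengths of 781 bases (Hspb3) to 2299 bases (Hspb6) among those tested, and short genes as a class were higher in P7 PAB. The median log2 fold change of all tested genes was 0.33 for those under 1000 bases and 0.32 between 1000 and 2000 bases, against -0.24 for those of 6000 bases or more. Longer genes had lower P7 values, with a Spearman's rho of -0.37 across tested genes (n = 15196) and -0.49 across members (n = 72), as descriptions over genes that share the same libraries. With the trend of each library with length removed, 5 members were called higher (Cct3, Dnajc12, Hspa1l, Hspb3 and Hspbp1) beside 6.21% of all genes. Hspb1 then had a log2 fold change of 0.58 (edgeR adjusted p = 0.000164), just under the fold threshold. Hspb3 remained above it at 0.62, and Hspb2, Hspb8 and Hspb11 fell under it at 0.35, 0.34 and 0.54. All 6 small heat shock protein genes kept a positive sign. With the class by Xist and Ddx3y as a further term, Hspb1 was called (0.71, edgeR adjusted p = 0.00779). Hspb3 (0.39, edgeR adjusted p = 0.206) and Hspb2 (0.23, edgeR adjusted p = 0.305) were not called in that fit. Neither were Hspb8 (0.46) and Hspb11 (0.59). Whether the trend with length is part of the response to banding or of library preparation was not tested.

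**Figure D3:**
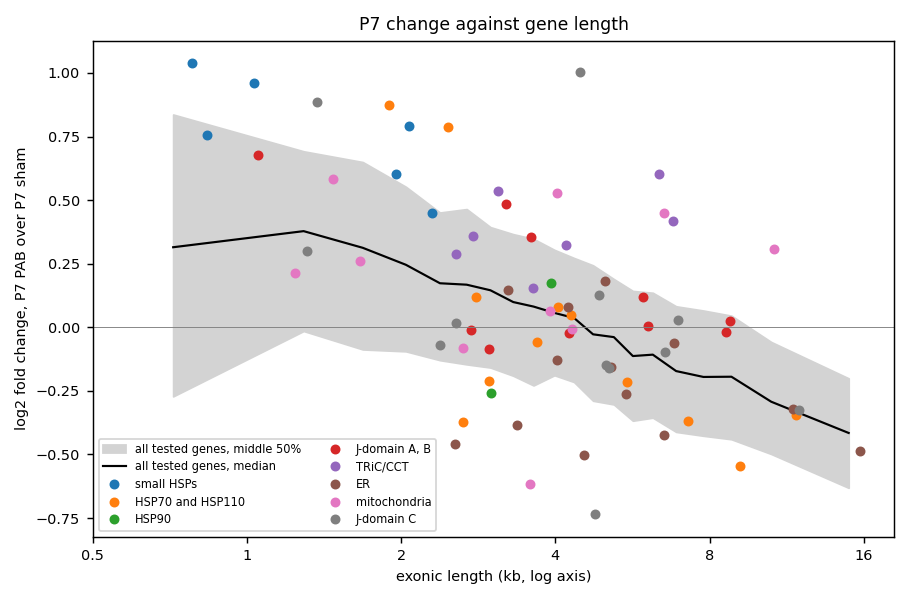
P7 log2 fold change (PAB over sham) of the 72 tested members, coloured by role, against exonic length in kb on a log axis. The line and the grey band give the median and the middle 50% of all tested genes in 20 bins of equal size by length. Hspb1 and Hspb3 lie above the band of genes of their length, and Dnajc12 and Cct3 stand well above longer genes, while Dnajc21 and Dnajc28 lie below it.

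The proximal promoters of Hspb1, Hspb3 and Hspb8 are shown because these small heat shock protein genes had the largest changes with banding (Hspb3 and Hspb1) and with age (Hspb8). They also differ in whether the bases shown hold a near match to the heat shock element, and none holds an exact match. Each run covers 250 bases up to the base before the RefSeq start (GRCm38.p6), written 5′ to 3′ on the gene's strand. Capitals mark a match, with at most 1 mismatch on either strand, to the heat shock element (GAA, 2 bases of any kind, TTC, 2 bases of any kind, GAA), and in Hspb3 also the TATA box TATAAA near the start.
Hspb1, chr5:135887669-135887918, plus strand: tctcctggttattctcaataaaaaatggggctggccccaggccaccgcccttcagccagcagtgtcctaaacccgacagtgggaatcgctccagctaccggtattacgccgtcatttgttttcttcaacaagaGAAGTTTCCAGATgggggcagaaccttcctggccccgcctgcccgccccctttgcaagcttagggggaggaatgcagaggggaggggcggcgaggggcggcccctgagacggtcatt
Hspb3, chr13:113663677-113663926, minus strand: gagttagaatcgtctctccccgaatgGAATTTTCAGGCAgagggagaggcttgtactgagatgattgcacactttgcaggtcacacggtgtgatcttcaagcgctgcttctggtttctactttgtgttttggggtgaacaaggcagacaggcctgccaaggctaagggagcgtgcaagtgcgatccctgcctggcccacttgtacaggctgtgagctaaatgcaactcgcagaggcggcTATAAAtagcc
Hspb8, chr5:116422865-116423114, minus strand: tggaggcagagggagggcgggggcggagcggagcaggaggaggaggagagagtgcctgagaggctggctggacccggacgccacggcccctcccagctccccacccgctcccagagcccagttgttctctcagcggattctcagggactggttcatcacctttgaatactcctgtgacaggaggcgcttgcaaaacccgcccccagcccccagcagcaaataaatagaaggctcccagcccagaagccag
Hspb1 and Hspb3 hold a near match and Hspb8 holds none in these bases. In the RefSeq table, which holds windows of 250 bases before to 50 after each start, 66 of the 81 members had 85 windows. An exact match, on either strand, was found in 6 of these 85 windows (7.06%, Wilson 95% interval 3.28 to 14.6%) and in 0.603% of all 32851 windows. The 6 windows are those of Hspd1, Hspe1, Dnajb6 and Hsph1, whose P7 log2 fold changes were -0.08, 0.58, 0.01 and -0.37, so that genes with an exact match had values on both sides of 0. With 1 mismatch allowed the shares were 24.7% and 7.22%. These are descriptions of letters in the windows, and some windows belong to the same gene or lie between neighbouring genes.

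Changes of the cytosolic HSP70 genes at P7 went both ways. Of 12 genes in this group, which includes HSP110 and the exchange factor Hspbp1, 2 were called higher and none lower (beside 9.63% and 8.59% of all genes tested). By adjusted p alone 5 were lower (beside 22.1%). Hspa8, the constitutive HSP70 known as HSC70, was the most abundant member by counts, at 1442, 1352 and 1193 CPM in the P3 sham libraries, 1514, 1402 and 1281 CPM in P3 PAB, 1317, 1295 and 1256 CPM in P7 sham, and 1448 and 1219 CPM in P7 PAB. Pseudogenes nearly identical to it, of which Gm15459 held 1778 counts against 336722 for Hspa8, could take a share of its reads. Its groups overlapped at both ages, with a P7 log2 fold change of 0.05 (edgeR adjusted p = 0.715). Per kb of exon, Hspa8 stood at 299.8 ± 7.22 CPM per kb (SD, n = 3) and Hsp90ab1 at 331 ± 0.70 CPM per kb (SD, n = 3) in P7 sham. Both lay above Hspd1 at 145 ± 8.23 CPM per kb (SD, n = 3) and Hspb1 at 97.2 ± 11.3 CPM per kb (SD, n = 3).

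The heat-inducible HSP70 genes were low in every library. Hspa1a had 3.61, 5.25 and 3.86 CPM in the P3 sham libraries, 5.11, 6.1 and 5.81 CPM in P3 PAB, 4.24, 4.18 and 5.24 CPM in P7 sham, and 3.8 and 4.09 CPM in P7 PAB. Hspa1b had 6.22, 4.45 and 3.86 CPM in the P3 sham libraries, 6.64, 7.36 and 5.69 CPM in P3 PAB, 5.07, 3.84 and 5.78 CPM in P7 sham, and 5.07 and 5.62 CPM in P7 PAB. These genes share 99.2% identity over 2201 bases, so reads could be split between them. At P7 the log2 fold changes were -0.21 (edgeR adjusted p = 0.374) for Hspa1a and 0.12 (edgeR adjusted p = 0.679) for Hspa1b, and neither was called. Their P3 values, 0.41 (edgeR adjusted p = 0.462) and 0.43 (edgeR adjusted p = 0.527), did not pass either, and the libraries of the P3 groups overlapped. The promoter of Hspa1a, the textbook target of heat shock factor 1, is shown for comparison with those above, with the same marking.
Hspa1a, chr17:34972157-34972406, minus strand: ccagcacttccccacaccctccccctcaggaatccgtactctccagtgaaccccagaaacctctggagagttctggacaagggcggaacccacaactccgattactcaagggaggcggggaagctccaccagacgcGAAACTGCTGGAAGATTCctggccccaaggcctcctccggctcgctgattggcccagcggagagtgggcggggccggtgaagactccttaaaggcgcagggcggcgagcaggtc
Its capitals hold 2 overlapping near matches, 1 on each strand.

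Hspbp1, which removes the nucleotide from HSP70, had 31.1, 36 and 28.7 CPM in the P3 sham libraries, 39.6, 38.4 and 37 CPM in P3 PAB, 28.9, 19.5 and 22.6 CPM in P7 sham, and 47 and 39.7 CPM in P7 PAB. Both P7 PAB libraries lay above every other library, P7 PAB replicate 2 only just above P3 PAB replicate 1 (log2 fold change 0.87, SE 0.13, edgeR adjusted p = 0.0001). With the length trend removed and the class term together, the call of Hspbp1 was lost (0.55, edgeR adjusted p = 0.0792). Hspa1l, an HSP70 gene best known from the testis, had 6.4, 6.28 and 4.05 CPM in the P3 sham libraries, 6.68, 7.49 and 9.59 CPM in P3 PAB, 5.86, 4.18 and 5.57 CPM in P7 sham, and 9.17 and 8.82 CPM in P7 PAB. It was higher at P7, where the groups did not overlap (log2 fold change 0.79, SE 0.20, edgeR adjusted p = 0.00459). The call of Hspa1l was also lost with the length trend removed and the class term together (0.88, edgeR adjusted p = 0.0846). Of its exonic length, 71.9% overlaps the antisense gene Gm10501, and without strand the reads of the pair cannot be told apart. Hsph1, an HSP110 exchange factor, ran the other way with 22, 20.0 and 17.6 CPM in the P3 sham libraries, 23.9, 23.3 and 22.1 CPM in P3 PAB, 21.2, 21.6 and 18.4 CPM in P7 sham, and 14.5 and 17.1 CPM in P7 PAB. It was lower in both P7 PAB libraries than in any other, at -0.37 (edgeR adjusted p = 0.0136), under the fold threshold. Hspa12a, Hspa4l, Hspa4 and Hspa2 had values of -0.54, -0.34, -0.21 and -0.37 at P7, lower by adjusted p and under the threshold.

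Of the 2 cytosolic HSP90 genes, neither was called. Hsp90ab1, the constitutive form, had 1090.3, 1062 and 1013 CPM in the P3 sham libraries, 1133, 1138 and 1034 CPM in P3 PAB, 991, 995 and 992 CPM in P7 sham, and 805 and 856 CPM in P7 PAB. Its P7 PAB libraries lay below all others, at -0.26 (edgeR adjusted p = 0.00909). Hsp90aa1, the inducible form, had 251, 226 and 196 CPM in the P3 sham libraries, 274, 253 and 257 CPM in P3 PAB, 209.9, 224 and 193 CPM in P7 sham, and 264 and 207 CPM in P7 PAB, with overlapping groups at P7 (log2 fold change 0.17, edgeR adjusted p = 0.224). Hsp90aa1 shares 99.5% identity with the pseudogene Gm12346, which held 402 counts over all libraries against 58548 for Hsp90aa1.

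TRiC/CCT is a ring of 8 related subunits that folds actin, tubulin and other clients. Of its Cct genes, 7 were tested, and their libraries at P7 did not overlap for any of the 7, with PAB above sham (beside 30.8% of all genes tested). By adjusted p alone 6 of the 7 were higher (beside 22.8% of all genes tested), and Cct3 alone passed the fold threshold (beside 9.63%). The median of the 7 log2 fold changes was 0.36. Cct3 had 141, 142 and 122 CPM in the P3 sham libraries, 160.4, 144 and 139 CPM in P3 PAB, 112, 106 and 98.1 CPM in P7 sham, and 177 and 143 CPM in P7 PAB. The P7 sham libraries were the lowest of the 4 groups. The fold change was 1.52 (log2 fold change 0.60, SE 0.10, edgeR adjusted p = 0.000196), and it fell under the threshold without P7 sham replicate 3 (log2 fold change 0.56) and without P7 PAB replicate 1 (0.44).

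The other subunits differed in size of change. Cct8 had 129.9, 128 and 118 CPM in P7 sham and 203 and 159.6 CPM in P7 PAB (log2 fold change 0.53, SE 0.10, edgeR adjusted p = 0.000452). Cct7 had 122, 118 and 107 CPM against 163 and 146 CPM (0.42 on the log2 scale). Cct5 had 151, 139.6 and 136 CPM against 196 and 167 CPM (0.36). Cct4 and Cct2 followed with 0.32 and 0.29. Cct6a changed least, with 99.6, 98.9 and 89.3 CPM against 109.7 and 103 CPM and 0.15 (edgeR adjusted p = 0.152). It had the lowest CPM of the 7 Cct genes in every library. These CPM are not divided by exonic length, so the order is not one of level per kb. Tcp1, the gene of the remaining subunit, had 209.7, 203 and 183 CPM against 253 and 202 CPM, with overlapping groups (log2 fold change 0.20, edgeR adjusted p = 0.0961). Among the 7 Cct genes the highest had 1.85 and 1.62 times the counts of the lowest in P7 PAB, against 1.43 to 1.54 times in the other 9 libraries. Tcp1 had the highest CPM in every library. With Tcp1 counted too, the ratios were 2.31 and 1.95 in P7 PAB and 1.81 to 2.10 in the others. P7 PAB replicate 2 thus lay within the range of the others. With the length trend removed Cct3 remained called (0.73) and the median of the 7 was 0.29.

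**Figure D4:**
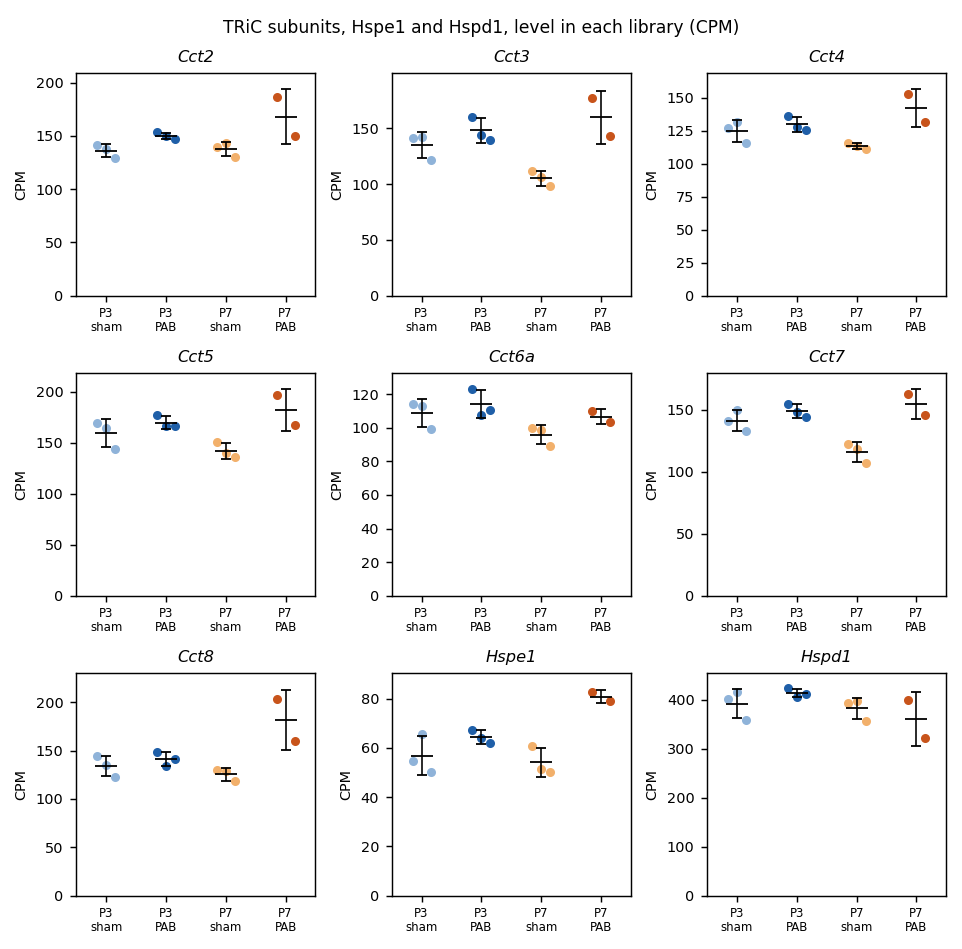
Level of 7 TRiC subunits (the Cct genes) and of the mitochondrial chaperonin genes Hspe1 and Hspd1 in each library, in CPM on linear axes from 0, with group means and SD as bars. Both P7 PAB libraries lie above all P7 sham libraries for each Cct gene and for Hspe1, while Hspd1 overlaps between the groups.

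In the ER group none of the 13 genes was called at P7. By adjusted p alone 7 were lower and none higher, beside 22.1% and 22.8% of all genes tested. The median log2 fold change was -0.26 (-0.11 after removal of the length trend), and 9 had P7 PAB libraries below all P7 sham libraries (beside 29.6% of all genes tested). Hspa5, or BiP, the HSP70 of the ER, had 423, 387 and 349 CPM in the P3 sham libraries, 412, 414 and 376 CPM in P3 PAB, 367, 325 and 364 CPM in P7 sham, and 399 and 344 CPM in P7 PAB. The groups overlapped at P7 (log2 fold change 0.08, edgeR adjusted p = 0.534). Hsp90b1, or GRP94, the HSP90 of the ER, had 362, 338 and 306 CPM in the P3 sham libraries, 355, 361 and 337 CPM in P3 PAB, 354, 358 and 351 CPM in P7 sham, and 345 and 304 CPM in P7 PAB, with both P7 PAB libraries below the sham libraries by less than the test could separate (log2 fold change -0.13, edgeR adjusted p = 0.229).

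Dnajb9, or ERdj4, a J-domain partner of BiP and a textbook target of the unfolded protein response, had 17.6, 15.4 and 16.1 CPM in the P3 sham libraries, 16.4, 15 and 16.9 CPM in P3 PAB, 22.8, 25.1 and 24.2 CPM in P7 sham, and 17.3 and 17.6 CPM in P7 PAB. P7 sham stood above the other 3 groups, and the P7 PAB libraries lay near the P3 level (log2 fold change -0.46, SE 0.09, edgeR adjusted p = 0.000736). Its P7 value after removal of the length trend was -0.65, past the fold threshold. The other genes lower by adjusted p were Dnajc25 (-0.50), Dnajb14 (-0.49), Dnajc16 (-0.42), Dnajb12 (-0.38), Dnajc1 (-0.32) and Dnajc18 (-0.26), all J-domain proteins of the ER membrane or lumen. Of the 3 ER genes with positive values, Dnajc10 had 0.18, Dnajb11 0.15 and Hspa5 0.08.

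The ER stress response element (CCAAT, 9 bases of any kind, CCACG, searched on both strands) is shown where the windows held it, in 3 of 85 windows of members (3.53%, Wilson 95% interval 1.21 to 9.87%) against 0.119% of all windows. Capitals mark the element, with 5 bases on each side, written on the gene's strand and read from RefSeq (GRCm38.p6). Each match includes a CCAAT box, and the second one of Hsp90b1 reads on the opposite strand.
Hspa5, chr2:34772020-34772048, plus strand: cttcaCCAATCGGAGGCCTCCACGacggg
Hsp90b1, chr10:86705633-86705661, minus strand: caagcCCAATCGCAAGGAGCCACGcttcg
Hsp90b1, chr10:86705528-86705556, minus strand: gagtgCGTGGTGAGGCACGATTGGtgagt
Dnajc3, chr14:118937822-118937850, plus strand: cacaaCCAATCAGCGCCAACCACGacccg
Hspa5, Hsp90b1 and Dnajc3, the genes with the element, were not called in any of the 4 group comparisons. Dnajc3, also known as P58IPK, had 54.6, 57.4 and 54 CPM in P7 sham and 53.7 and 45.6 CPM in P7 PAB (log2 fold change -0.16, edgeR adjusted p = 0.122).

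Of 10 genes for mitochondrial chaperones and their J-domain proteins, none was called higher and 1, Dnajc28, lower at P7 (beside 9.63% and 8.59% of all genes tested). By adjusted p alone 5 were higher (beside 22.8%). Hspe1 and Hspd1 code for HSP10 and HSP60, the lid and the barrel of the mitochondrial chaperonin, and share a promoter between them on chromosome 1. Hspe1 had 54.6, 65.7 and 50.4 CPM in the P3 sham libraries, 67.4, 64 and 61.8 CPM in P3 PAB, 60.8, 51.4 and 50.2 CPM in P7 sham, and 82.8 and 79 CPM in P7 PAB. Both P7 PAB libraries were above all others, and the fold change of 1.496 was just under the threshold (log2 fold change 0.58, SE 0.10, edgeR adjusted p = 0.000395). Hspd1 had 401, 415 and 359 CPM in the P3 sham libraries, 423, 405 and 413 CPM in P3 PAB, 393, 397 and 357 CPM in P7 sham, and 399.9 and 322 CPM in P7 PAB, with overlapping groups (log2 fold change -0.08, edgeR adjusted p = 0.507). The pseudogene Hspd1-ps3, 99.0% identical over 1722 bases, held 392 counts against 98127 for Hspd1. The ratio of Hspe1 to Hspd1 counts was 0.207 and 0.245 in P7 PAB and 0.129 to 0.159 in the other 9 libraries. Hspe1 is the shorter gene (1474 against 2642 bases of exon), and with the length trend removed its P7 value was 0.25 (edgeR adjusted p = 0.0315).

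The stretch that carries the heat shock element between the pair is shown because the genes read it in opposite directions. It lies at chr1:55088054-55088081 (GRCm38.p6), inside an exon of the GENCODE M21 annotation, and is written on the strand of Hspe1, with the 2 overlapping matches in capitals.
Hspe1, chr1:55088054-55088081, plus strand: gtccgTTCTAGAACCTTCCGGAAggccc
Its first capital lies 89 bases before the RefSeq start of Hspe1.

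Hspa9, or mortalin, the mitochondrial HSP70, had 634, 635 and 544 CPM in the P3 sham libraries, 648, 619.7 and 631 CPM in P3 PAB, 556, 545 and 516 CPM in P7 sham, and 582 and 490.4 CPM in P7 PAB. The P7 groups overlapped (log2 fold change -0.01, edgeR adjusted p = 0.955). Dnajc19, a J-domain part of the import motor of the inner membrane, had 26.2, 29.1 and 22 CPM in the P3 sham libraries, 28.7, 29.4 and 27.9 CPM in P3 PAB, 35, 32.2 and 31.6 CPM in P7 sham, and 48.8 and 46.3 CPM in P7 PAB. It was higher in both P7 PAB libraries than in any other, at 0.53 (edgeR adjusted p = 0.000462), under the fold threshold. Dnajc28 had 10.1, 11.1 and 13.9 CPM in the P3 sham libraries, 9.3, 10.7 and 10.2 CPM in P3 PAB, 13.8, 17.3 and 17.5 CPM in P7 sham, and 10.1 and 11.1 CPM in P7 PAB. Its P7 PAB libraries lay below the P7 sham libraries and within the range of the P3 libraries (log2 fold change -0.62, SE 0.14, edgeR adjusted p = 0.00228). This call was lost without P7 sham replicate 2 (log2 fold change -0.57), P7 sham replicate 3 (-0.56) or P7 PAB replicate 1 (-0.55).

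None of the 10 tested J-domain genes of class A and B outside the organelles was called at P7, beside 9.63% higher and 8.59% lower of all genes tested. Dnajb1, the main HSP40 partner of HSP70 and itself a heat shock gene, had 26.9, 27.8 and 25.2 CPM in the P3 sham libraries, 26.5, 28.7 and 25.7 CPM in P3 PAB, 19.5, 17.7 and 19.7 CPM in P7 sham, and 26.3 and 26.8 CPM in P7 PAB. The P7 sham libraries were low and the P7 PAB libraries were at the P3 level (log2 fold change 0.48, SE 0.08, edgeR adjusted p = 0.000301). Dnaja1 had 109, 108 and 113 CPM in the P3 sham libraries, 107, 106 and 103 CPM in P3 PAB, 109, 123 and 113 CPM in P7 sham, and 115 and 112 CPM in P7 PAB, with overlapping groups at P7 (log2 fold change -0.02, edgeR adjusted p = 0.838). Dnaja4 was higher by adjusted p (0.36), with 44.1% of its exonic length overlapping Wdr61 on the other strand.

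In the remaining J-domain genes of class C, 2 of 12 were called higher and 1 lower at P7 (beside 9.63% and 8.59% of all genes tested). Dnajc12, which binds hydroxylases of aromatic amino acids, was low, with 3.35, 2.82 and 3.59 CPM in the P3 sham libraries, 3.45, 3.2 and 3.33 CPM in P3 PAB, 2.22, 2.09 and 1.89 CPM in P7 sham, and 4.98 and 3.25 CPM in P7 PAB. P7 PAB libraries lay above P7 sham libraries (log2 fold change 1.00, SE 0.20, edgeR adjusted p = 0.00098). The value was 0.66 and still called without P7 PAB replicate 1, and with the length trend removed and the class term together the call was lost (1.07, edgeR adjusted p = 0.0567). Dnajc24, an enzyme of diphthamide synthesis on elongation factor 2, had 5.88, 5.44 and 6.58 CPM in the P3 sham libraries, 6.23, 6.28 and 5.69 CPM in P3 PAB, 3.99, 4.42 and 4.57 CPM in P7 sham, and 7.9 and 8.13 CPM in P7 PAB, and its P7 PAB libraries were the highest (log2 fold change 0.89, SE 0.13, edgeR adjusted p = 7.22e-05). Its value without the length trend was 0.54, under the fold threshold. Dnajc21, which takes part in the maturation of the large ribosomal subunit, had 23.1, 20.5 and 19.4 CPM in the P3 sham libraries, 21.5, 22.1 and 24.4 CPM in P3 PAB, 24, 23.7 and 24.3 CPM in P7 sham, and 14 and 14.9 CPM in P7 PAB. Both P7 PAB libraries were below every other library (log2 fold change -0.73, SE 0.09, edgeR adjusted p = 2.63e-05). Dnajc21 was not called with the Xist and Ddx3y class of each library as a term (-0.52), a fit in which P3 sham replicate 1 alone separates the class from the P7 groups.

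At P3 no member was called in either direction by edgeR, beside 0.108% of all genes called higher and 0.019% lower. None passed at the adjusted p alone, beside 0.114% higher and 0.0253% lower. At an unadjusted p under 0.05, 14 of the 72 members passed (19.4%, beside 8.39% of all genes), the DESeq2 test called 0, and the lowest adjusted p of a member was 0.151, for Hspb8. The small shifts leaned upward: 56 of the 72 members (77.8%) had a log2 fold change above 0, beside 49.7% of all genes tested, with a median of 0.07 against -0.0010. PAB libraries lay above sham libraries without overlap for 16 members and below for 2, beside 8.65% and 8.02% of all genes. The 16 include Hspb8 at 0.48, Hspb1 at 0.34, Hspa1l at 0.50 and Hspb6 at 0.33, on the log2 scale. Hspb2, Hspb3 and Hspb11, called at P7, had -0.0023, -0.09 and -0.01 at P3. Members are measured in the same 6 libraries and are not independent of each other.

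Whether banding acted differently at the 2 ages was tested as an interaction, the P7 effect minus the P3 effect, and called at adjusted p alone. It was positive for 13 of the 72 members and negative for 11, beside 13.3% and 12.6% of all genes (25.9% in either direction). Among the positive ones were 4 of the 6 genes listed as small heat shock proteins (Hspb1, Hspb2, Hspb3 and, by its name, Hspb11). The others were Cct3, Cct7 and Cct8 of TRiC, and Hspe1, Dnajc19, Dnajb1, Hspbp1, Dnajc12 and Dnajc24. Among the negative ones were 4 ER J-domain genes (Dnajb9, Dnajb12, Dnajc16 and Dnajc25), Hsp90ab1, 4 genes of the HSP70 and HSP110 group (Hsph1, Hspa4, Hspa4l and Hspa12a), Dnajc13 and Dnajc21. Hspb8 was not called, with 0.48 at P3 and 0.60 at P7 (difference 0.12, edgeR adjusted p = 0.647). Without P7 PAB replicate 1 there were 5 positive differences, beside 7.98% of all genes in that fit. With the class by Xist and Ddx3y as a term, 7 positive and 2 negative differences (Dnajc21 and Hspa4l) were called, beside 7.84% and 6.65% of all genes, and the ER J-domain genes, Hsp90ab1, Hsph1, Hspa4, Hspa12a and Dnajc13 were not among them. Removing the length trend left 7 positive differences (beside 10.4% of all genes), without Hspb1, Hspb11, Hspbp1, Cct8, Hspe1 and Dnajc19. There were again 11 negative ones (beside 8.8% of all genes), 8 of them as before, while the negative calls of Hspa4l, Hspa12a and Dnajc13 ended. Of the negative calls, those of Dnajb9, Dnajb12, Hsp90ab1 and Hsph1 were lost without P7 PAB replicate 1, and those of Hspa4, Hspa12a and Dnajc13 without P7 PAB replicate 2. Dnajb12 was also lost without P3 sham replicate 3 or P3 PAB replicates 2 or 3 (-0.59 to -0.34 over the 11 fits).

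The age comparisons ask how the chaperone genes move from P3 to P7 in hearts with and without a band. In sham hearts 1 member was called higher and 4 lower (beside 5.62% and 5.73% of all genes), and in PAB hearts 6 were higher and 3 lower (beside 9.5% and 8.2%). At the adjusted p alone the counts were 13 higher and 11 lower in sham hearts (beside 16.2% and 16.8%) and 17 and 16 in PAB hearts (beside 22.3% and 21.2%). Libraries of the 2 ages did not overlap for 20 members that were higher and 13 that were lower at P7 in sham hearts (beside 22.4% and 22.9%), and for 25 and 20 in PAB hearts (beside 32% and 30.7%). Values above 0 were found for 38 members in sham (beside 50.1%) and 39 in PAB hearts (beside 50.3%). The sham and the PAB comparison share no library. All P7 sham libraries were high in Xist, but at P3 only sham replicate 1 was. Age and this class thus partly go together in sham hearts. With the class as a term, 3 members were higher and 1 lower there (beside 3.88% and 4.58% of all genes). In PAB hearts the length trend goes with age, with a Spearman's rho of -0.37 over all tested genes, against -0.03 in sham hearts. Scaling by the total count in place of TMM moved the median log2 fold change of all genes to -0.31 in sham and -0.25 in PAB hearts, from 0.0009 and 0.0031, and gave 1 higher and 11 lower members in sham (beside 2.51% and 18.2% of all genes) and 2 higher and 14 lower in PAB hearts (beside 4.08% and 19.4%). The changes below are therefore relative to the bulk of genes.

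Hspb8 rose in both, by 1.05 in sham (2.07-fold, edgeR adjusted p = 9.51e-06) and 1.17 in PAB hearts (2.24-fold, edgeR adjusted p = 4.5e-06), and was higher under both scalings. Hspb1 fell in sham hearts from 168 ± 17.6 CPM (SD, n = 3) to 100.2 ± 11.7 CPM (SD, n = 3) (log2 fold change -0.75, SE 0.10, edgeR adjusted p = 4.92e-05). In PAB hearts it went from 212 ± 19.4 CPM (SD, n = 3) to 195 ± 2.43 CPM (SD, n = 2), a value of -0.12 (edgeR adjusted p = 0.368) that was not called. Since the P7 sham libraries enter both the fall with age and the P7 difference, those 2 values of Hspb1 are not independent. Hspb2, Hspb3, Hspb6 and Hspb11 were called higher with age in PAB hearts, with 0.69, 0.78, 0.60 and 0.95, against -0.07, -0.34, 0.47 and 0.14 in sham hearts. Under total count scaling Hspb2, Hspb3 and Hspb6 fell under the fold threshold (0.44, 0.53 and 0.35). With the length trend removed, the same 3 genes were no longer called (0.19, 0.26 and 0.40). The call of Hspb6 was also lost with the replicate number as a block, and without P3 PAB replicate 1 (0.51) or P7 PAB replicate 1 (0.47).

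Dnajc9, a histone chaperone of the J-domain class, fell in both kinds of heart. It had 36.9, 40.0 and 35.9 CPM in the P3 sham libraries, 38.4, 38.3 and 36.3 CPM in P3 PAB, 27.1, 25 and 22.3 CPM in P7 sham, and 24.1 and 23 CPM in P7 PAB, so every P7 library was below every P3 library. The changes were -0.60 (edgeR adjusted p = 5.29e-05) in sham and -0.68 (edgeR adjusted p = 3.52e-05) in PAB hearts. The sham value fell under the fold threshold without P3 sham replicate 2 (-0.56) or P7 sham replicate 3 (-0.53), and with the class term (-0.58). Hspa14, an HSP70 bound to the ribosome together with Dnajc2, had 6.35, 7.04 and 6.53 CPM in the P3 sham libraries, 7.35, 5.72 and 6.7 CPM in P3 PAB, 3.6, 3.79 and 4.74 CPM in P7 sham, and 5.59 and 2.91 CPM in P7 PAB. It was lower at P7 in sham hearts (log2 fold change -0.71, edgeR adjusted p = 0.00975, and not called at -0.65 with the class term) and in PAB hearts (log2 fold change -0.62, edgeR adjusted p = 0.0278). The latter rests on P7 PAB replicate 2, without which the value was -0.24, and was also lost without P3 PAB replicate 1 (-0.54) or P3 PAB replicate 3 (-0.63).

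Dnajc12 was called lower with age in sham hearts (log2 fold change -0.65, edgeR adjusted p = 0.0151), a call lost at the adjusted p with the class term (-0.70) and without P3 sham replicate 3 (-0.58) or P7 sham replicate 3 (-0.59). Dnajc19 rose in PAB hearts (log2 fold change 0.73, edgeR adjusted p = 3.63e-05, but 0.48 under total count scaling) and had 0.35 in sham hearts, and Dnajc21 fell in PAB hearts (log2 fold change -0.65, edgeR adjusted p = 7.27e-05) against 0.20 in sham hearts. Of class A and B J-domain genes, 6 of 10 were higher with age in sham and 5 in PAB hearts by adjusted p alone (beside 16.2% and 22.3% of all genes). Dnajb4 came closest to the fold threshold among them, with 0.58 and 0.54. Dnajb1 was lower with age in sham hearts by adjusted p (-0.49) and had -0.02 in PAB hearts.

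**Figure D5:**
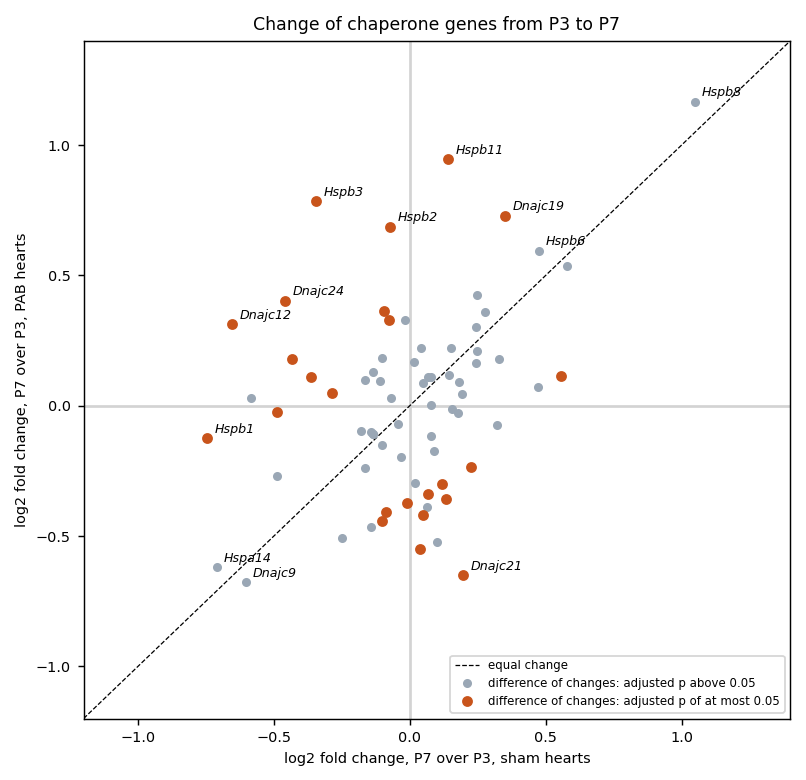
Log2 fold change of the 72 tested members from P3 to P7 in sham hearts (horizontal) and in PAB hearts (vertical), with the dashed line for equal change and orange points for genes whose 2 changes differ at an adjusted p of at most 0.05. Hspb8 lies at the upper right (1.05 and 1.17), Hspa14 and Dnajc9 at the lower left, and Hspb1, Hspb3, Dnajc12 and Dnajc24 lie above the line.

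Genes that regulate or work with these chaperones gave a mixed picture at P7. None of the 3 heat shock factor genes was called: Hsf1 had 27.4, 22.9 and 22 CPM in P7 sham and 22.3 and 25.2 CPM in P7 PAB (log2 fold change -0.02, edgeR adjusted p = 0.883), and Hsf2 had -0.09 (edgeR adjusted p = 0.466). Of 24 co-chaperones of HSP70 and HSP90 none was called, with 11 higher and 3 lower by adjusted p alone (beside 22.8% and 22.1% of all genes tested). A list of 14 genes holds Tcp1, prefoldin subunits, phosducin-like proteins and tubulin folding cofactors, most of which act with TRiC on actin and tubulin. Of these, 4 were called higher (Tbca, Pfdn1, Tbcb and Pfdn4) and 11 were higher by adjusted p, beside 9.63% and 22.8% of all genes tested. Their median log2 fold change was 0.39. Tbca, a tubulin folding cofactor, moved most, with 29.7, 28.5 and 25.2 CPM in P7 sham and 64.3 and 57.6 CPM in P7 PAB (log2 fold change 1.13, SE 0.11, edgeR adjusted p = 3.24e-06). With the length trend removed 1 of the 14, Tbca, was called higher at 0.72. Pfdn4 was also lost without P7 sham replicate 3 (0.56). Of these 14 genes, 11 had a log2 fold change above 0 at P3 and none was called there.

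Of 21 genes of ER folding and the unfolded protein response, 3 were called higher (Sdf2l1, Atf4 and Manf) and 1 lower (Ern1), beside 9.63% and 8.59% of all genes tested. Sdf2l1, a cofactor of BiP, had the largest rise (log2 fold change 0.68, edgeR adjusted p = 0.0194), a call lost without P7 sham replicate 2 (0.52) or P7 PAB replicate 2 (0.58). Ern1, the sensor IRE1, went from 18.5, 19.1 and 18.5 CPM to 11.4 and 10.8 CPM (log2 fold change -0.75, SE 0.10, edgeR adjusted p = 3.3e-05), and Calr, the ER chaperone calreticulin, had 0.02 (edgeR adjusted p = 0.90). With the length trend removed Sdf2l1, Atf4, Manf and Ern1 were under the fold threshold, at 0.30, 0.45, 0.51 and -0.56, and Manf was also lost without P7 sham replicate 2 or 3 (0.57 and 0.58) or P7 PAB replicate 1 (0.42). Of 12 genes of the mitochondrial import motor and protein quality control, 2 were called higher (beside 9.63% of all genes tested). They were Pam16 (log2 fold change 0.94, edgeR adjusted p = 3.09e-05) and Grpel1, the exchange factor of Hspa9 (log2 fold change 0.71, edgeR adjusted p = 7.71e-05). Trap1, the mitochondrial HSP90, had 0.11 (edgeR adjusted p = 0.20). Grpel1 fell under the fold threshold without P7 PAB replicate 1 (0.57). Cryab, the crystallin of muscle and the neighbour of Hspb2, had 385, 386 and 305 CPM in the P3 sham libraries, 432, 486 and 411 CPM in P3 PAB, 508, 397 and 452 CPM in P7 sham, and 874 and 637 CPM in P7 PAB. Its P7 PAB libraries were the highest (log2 fold change 0.74, SE 0.14, edgeR adjusted p = 0.000494), but the value was under the fold threshold without P7 PAB replicate 1 (0.49) and with the length trend removed (0.41).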

How the data were processed

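RNA of 11 mouse heart libraries was sequenced, and the deposited table holds raw counts per gene, 1 column per library, which the authors made by aligning reads to GRCm38 with STAR 2.5.2b (per the labels, in the submitters' processing notes) and the Gencode annotation. The counting tool, strand setting and Gencode release are not given in the sources used here. All 11 columns were used, and groups came from the sample labels. The labels do not say how many hearts a library holds, so p-values measure the spread between these samples.

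Counts were fitted with edgeR 4.0.16 in R 4.3.3 (TMM, filterByExpr, quasi-likelihood test, all 11 libraries in 4 groups with a shared spread, because P7 PAB has 2). A call required a 1.5-fold difference or more with p, adjusted by Benjamini-Hochberg over 15808 genes, no higher than 0.05, and the interaction needed the adjusted p alone. CPM are counts per 1000000, scaled by TMM, and the text calls a level per kb where it is divided by exonic length (GENCODE M21, where 47808 of 50600 names matched). Near copies were found with BLAST+ 2.17.0, and promoters came from RefSeq. Steps were tested on simulated data, where 31.5 to 37.5% of genes changed 1.5-fold were called over the 4 group comparisons. Of genes changed 2-fold, 74.5 to 83.5% were called. A gene that was not called may therefore still differ. Depth was 19274045 to 26820228 counts per library.

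Members, roles and lists were chosen with earlier results of these data known. Named genes are every member called in a group comparison plus the main HSP70, HSP90, small heat shock protein, chaperonin and J-domain genes, whatever their values. Other members named with a value were chosen after their values were seen. The fits were repeated with size factors from RLE, with total count scaling, with a stricter filter on low counts or none, with DESeq2 1.42.0, without the fold threshold, on 2 groups at a time, with the replicate number as a block, after taking out each library's trend with exonic length (lowess, span 0.3), with a term for the class of each library by Xist and Ddx3y, and without each library in turn. The length trend and class together were added after seeing the data. Figures were drawn with matplotlib 3.10.9 in Python 3.11.15. The 2 names the rule leaves out are not reported here.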

Additional observations from a re-analysis of the deposited data

Results flagged for a closer look

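Each of the genes below had a PAB effect that differed between P7 and P3 by edgeR's interaction test, which is what marked it for a closer look. The value is the P7 log2 fold change minus the P3 one. Every P7 effect here uses the same 2 PAB libraries.

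Small heat shock proteins with a larger effect at P7 were Hspb1 (0.62, adjusted p = 0.00581, from 0.34 at P3 and 0.96 at P7), Hspb2 (0.76, adjusted p = 0.00157, from -0.0023 at P3 and 0.76 at P7), Hspb3 (1.13, adjusted p = 0.000453, from -0.09 at P3 and 1.04 at P7) and Hspb11 (0.80, adjusted p = 0.0191, from -0.01 at P3 and 0.79 at P7). Of the chaperonins the same held for Cct3 (0.47, adjusted p = 0.0182, from 0.13 at P3 and 0.60 at P7), Cct7 (0.34, adjusted p = 0.0318, from 0.08 at P3 and 0.42 at P7), Cct8 (0.46, adjusted p = 0.0196, from 0.08 at P3 and 0.53 at P7) and the mitochondrial Hspe1 (0.40, adjusted p = 0.0458, from 0.18 at P3 and 0.58 at P7). Exchange factor and J-domain genes with a positive difference were Hspbp1 (0.61, adjusted p = 0.0205, from 0.26 at P3 and 0.87 at P7), Dnajb1 (0.47, adjusted p = 0.00719, from 0.02 at P3 and 0.48 at P7), Dnajc12 (0.97, adjusted p = 0.0166, from 0.04 at P3 and 1.00 at P7), Dnajc19 (0.38, adjusted p = 0.0474, from 0.15 at P3 and 0.53 at P7) and Dnajc24 (0.86, adjusted p = 0.00263, from 0.03 at P3 and 0.89 at P7).

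Negative differences were found for Hsph1 (-0.59, adjusted p = 0.00898, from 0.22 at P3 and -0.37 at P7), Hsp90ab1 (-0.32, adjusted p = 0.0244, from 0.06 at P3 and -0.26 at P7), Dnajb9 (-0.44, adjusted p = 0.0154, from -0.02 at P3 and -0.46 at P7) and Dnajc21 (-0.85, adjusted p = 0.000369, from 0.11 at P3 and -0.73 at P7). The P3 value was above 0 for Hsph1, Hsp90ab1 and Dnajc21, and below 0 at P7 for all of these genes.

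Removing the length trend ended the calls of Hspb1 (0.30), Hspb11 (0.59), Hspbp1 (0.38), Cct8 (0.34), Hspe1 (0.13) and Dnajc19 (0.33). The class by Xist and Ddx3y as a term ended those of Hspb11 (0.84), Hspbp1 (0.57), Cct7 (0.34), Hspe1 (0.34), Dnajc12 (1.01), Dnajc19 (0.40), Dnajb9 (-0.33), Hsp90ab1 (-0.27) and Hsph1 (-0.44). With both together, of these 17 genes Cct3, Dnajc21 and Hsp90ab1 were called. Total count scaling also ended the call of Hsp90ab1 (-0.26), and that of Dnajc19 was lost with RLE size factors, with DESeq2 and with no filter and bias-adjusted residuals too (0.37, 0.37 and 0.38). A replicate block ended the calls of Hspe1 (0.35, adjusted p = 0.0635) and Dnajc19 (0.32, adjusted p = 0.074). The cause of these losses was not tested.

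Leaving out each of the 11 libraries in turn kept the sign of every difference. Hspb1, Hspb2, Hspb3, Dnajb1, Dnajc21 and Dnajc24 remained called in each such fit. Without P7 PAB replicate 1 the calls of Hspb11, Hspbp1, Cct3, Cct7, Cct8, Hspe1, Dnajb9, Dnajc12, Dnajc19, Hsp90ab1 and Hsph1 were lost. Cct3 then had 0.31, Cct8 0.27 and Hsph1 -0.47. Hspe1 and Dnajc19, at adjusted p just under 0.05, were lost on leaving out any of 9 libraries, all but P3 sham replicate 3 and P7 sham replicate 1, with values of 0.29 to 0.50 and 0.28 to 0.48 over the 11 fits. Cct7 was also lost without P3 sham replicates 1 or 2, P3 PAB replicates 2 or 3, or P7 sham replicate 3 (0.26 to 0.42), and Cct8 without P3 sham replicate 1 or P7 sham replicate 3 (0.27 to 0.62). Hsp90ab1 was lost without P3 sham replicate 3 or P3 PAB replicates 1 or 2 (-0.38 to -0.28), and Hspbp1 without P3 sham replicate 2 (0.48 to 0.78).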

How the results depend on the processing

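RLE size factors, DESeq2, a fit of 2 groups, no filter and a stricter filter kept every count of members called within 1.5 times, with 1 exception: 2 instead of 1 higher with age in sham hearts under the stricter filter. The fit with no filter gave an infinite prior on the variance, so its p-values do not reflect single genes, and bias-adjusted residuals were run beside it. At P3 every alternative left 0 members called in either direction. No named gene with a call reversed its sign in any alternative.

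Without the fold threshold the calls were 23 higher and 16 lower at P7 (beside 22.8% and 22.1% of all genes), 13 and 11 with age in sham hearts (beside 16.2% and 16.8%), and 17 and 16 with age in PAB hearts (beside 22.3% and 21.2%). Total count scaling gave 11 lower with age in sham (beside 18.2% of all genes), and 2 higher and 14 lower with age in PAB hearts (beside 4.08% and 19.4%). With the length trend removed 5 were higher at P7 and 7 had a positive difference of effects (beside 6.21% and 10.4% of all genes). The class by Xist and Ddx3y as a term gave 10 higher and 1 lower at P7 (beside 7.67% and 5.93% of all genes). With it 3 were higher and 1 lower with age in sham hearts (beside 3.88% and 4.58%), with 7 positive and 2 negative differences (beside 7.84% and 6.65%). Both together gave 3 higher (Cct3, Dnajc11 and Hspb1) and 1 lower at P7, beside 4.99% and 3.63% of all genes. With age in sham hearts 3 were higher and 1 lower in that fit (beside 3.86% and 4.84%). It gave 1 positive and 3 negative differences (beside 5.17% and 4.01%). The cause was not tested.

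Replicate numbers carry no stated pairing. Deviations of same-numbered libraries correlated at a median of 0.037 (-0.0998 to 0.144 over 15 pairs), and the numbers were not taken to pair the samples. Within P3 the 3 same-numbered sham and PAB pairs had 0.0791 to 0.144 and the 6 others -0.0846 to 0.00516. A replicate block gave 8 higher and 1 lower at P7, without Cct3 and Hspb8 and without Dnajc28 (beside 8.96% and 7.67% of all genes). It gave 11 positive differences (beside 12.6%), and 5 higher with age in PAB hearts, without Hspb6 (beside 8.89%). The replicate block with the length trend removed gave 4 higher and 4 lower at P7 (beside 5.69% and 6.3% of all genes), and 7 positive differences (beside 9.81%).

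Leaving out each library in turn gave 8 to 12 higher and 1 to 2 lower at P7 (1 without P7 sham replicate 2 or 3), 1 to 3 higher (2 without P3 sham replicate 1 or P7 sham replicate 3, 3 without P3 sham replicate 3 or P7 sham replicate 1) and 2 to 5 lower with age in sham hearts (2 without P7 sham replicate 3), 5 to 7 higher and 3 to 4 lower with age in PAB hearts, and 5 to 15 positive (5 without P7 PAB replicate 1) and 8 to 14 negative differences. Depth limits the 9 members under the filter on low counts, for which no difference was detectable.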

Other observations

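All 81 members together took 0.827 to 0.938% of the counts of each P3 library and 0.671 to 0.768% of each P7 library. As a sum of CPM scaled by TMM they stood at 7330.5 to 8675 in the 6 P3 libraries and at 7540.0 to 8658 in the 5 P7 libraries. Mitochondrially encoded transcripts took 11.4 to 13.1% of the counts at P3 and 18.0 to 22.2% at P7, and their part in the lower share was not tested.

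The members' promoter windows held the TATA box TATAAA, searched on both strands, in 4.71% of 85 windows (Wilson 95% interval 1.85 to 11.5%), beside 13.6% of all windows, and a CCAAT box in 40.0% beside 37.4%. The members with a TATA box were Hspb3, Hspb6, Dnajc19 and Dnajc24.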
